A study of Mus musculus with 24 samples.

Results

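The livers of wild-type (WT) mice and of mice labelled as glucagon receptor knockouts (KO) were compared for how far each gene moved between the last days before birth and the end of the first week of life. The measure was an interaction: the KO-WT difference on the postnatal day labelled P7.5 minus the KO-WT difference on the embryonic day labelled E18.5. It equals the change with age in KO livers minus the change in WT livers, so a positive interaction means a gene ended relatively higher in KO. It was computed for every gene from 15 of the series' 24 libraries, 4 of E18.5 WT, 4 of E18.5 KO, 4 of P7.5 WT and 3 of P7.5 KO. Of 20144 genes with a symbol, 17248 passed the filter on low signal and were tested.

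Each library was total liver RNA, labelled with Cy5 and hybridised to an Agilent array beside 1 common Cy3-labelled pooled mouse reference RNA. All levels below are log2 ratios of Cy5 to Cy3, so 1 unit is a 2-fold difference, and a level is comparable between libraries for 1 gene but not between genes. The labels give genotype, age and tissue only. They do not give strain, sex, feeding state or how the receptor gene was disrupted, and do not say whether replicates were separate animals, so the p-values measure only the spread between these samples. Libraries of P2.5, 4 of each genotype, shared the estimate of that spread and are given as levels where they help.

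The libraries were chosen by the level of Gcgr itself, which encodes the glucagon receptor, so its values are a description with no test. Gcgr stood at 5.07, 5.74, 5.28 and 4.87 in the E18.5 WT libraries and at 5.50, 5.61, 5.65 and 5.65 in the P7.5 WT libraries. The E18.5 KO libraries lay between -0.01 and 0.19. At P7.5 the libraries labelled KO replicate 1, 3 and 4 lay between -0.01 and 0.26, whereas the library labelled P7.5 KO replicate 2 stood at 5.02. That library was above the limit of 4 and was left out. It goes against its label in the gene that defines the groups, and its level is given beside a number of the results below.

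Glucagon is secreted by pancreatic alpha cells when blood glucose is low, and its receptor is a G protein-coupled receptor found mainly on hepatocytes. The receptor raises cyclic AMP (cAMP), activates protein kinase A and CREB, and so favours glycogen breakdown, glucose production and the uptake and degradation of amino acids, whose nitrogen leaves the liver as urea. Birth ends the placental supply of glucose, and glucagon rises while insulin falls as the newborn turns to milk. Over the same days blood cell formation leaves the liver and hepatocytes take on the enzymes and secreted proteins of the adult organ.

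Some features of the libraries move with the groups. All WT arrays were scanned on 1 day. Their images were read with a later release of Agilent Feature Extraction than those of any KO array. The E18.5 KO arrays shared 1 slide and the P7.5 KO arrays, the left-out one included, shared another, so in KO livers the change with age and the slide cannot be told apart. The WT arrays of both ages were spread over 5 slides. The Y-linked gene Ddx3y, which marks male livers, was above 1 in 1 E18.5 WT, 2 P7.5 WT and 2 E18.5 KO libraries and in all 3 P7.5 KO libraries used, and below -2 in the others and in the left-out library. Its part in the results was not tested. Among the 15 libraries of the interaction, P7.5 KO replicate 1 and E18.5 WT replicate 2 lay farthest from their groups. Their root mean square deviation was 0.244 and 0.251 log2 units over the genes tested, against 0.109 to 0.192 for the others. The P2.5 libraries, which shared the estimate of the spread, ran from 0.134 to 0.298.

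The interaction passed the test, a Benjamini-Hochberg adjusted p under 0.05 in a limma fit over all genes, for 704 genes, or 4.08% of those tested. The interaction was positive for 271 of them (1.57%) and negative for 433 (2.51%), and 69 and 96 respectively differed by at least 2-fold. At an unadjusted p under 0.05 there were 3274 genes. The median interaction over all genes tested was -0.03. For comparison, 46.1% of genes changed with age in WT and 44% in KO, while 27.8% differed between genotypes at E18.5 and 37.7% at P7.5. Of the 17248 genes, 4683 passed as higher with age in WT and 4210 in KO. Whether passed or not, 9439 interactions were negative and 7809 positive. The counts for gene lists below are to be read beside these.

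Most of the 704 genes were ones whose genotype difference passed the test at P7.5 alone. Missing the test at E18.5 does not show that there was no difference before birth. For 430 the KO-WT difference passed at P7.5 and not at E18.5, for 151 it passed at E18.5 and not at P7.5, and for 69 it passed at both ages in the same direction. Another 53 passed at both ages in opposite directions, and 1 passed at neither. By change with age, 253 genes passed in KO livers alone, 188 in WT livers alone and 66 in both but in opposite directions. Of those that moved the same way in both genotypes, 127 moved more in KO and 70 more in WT. The plot of change with age by genotype shows the called genes on both sides of the line of equal change, with a median interaction of 0.73 for those above it and -0.69 for those below.

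**Figure D1:**
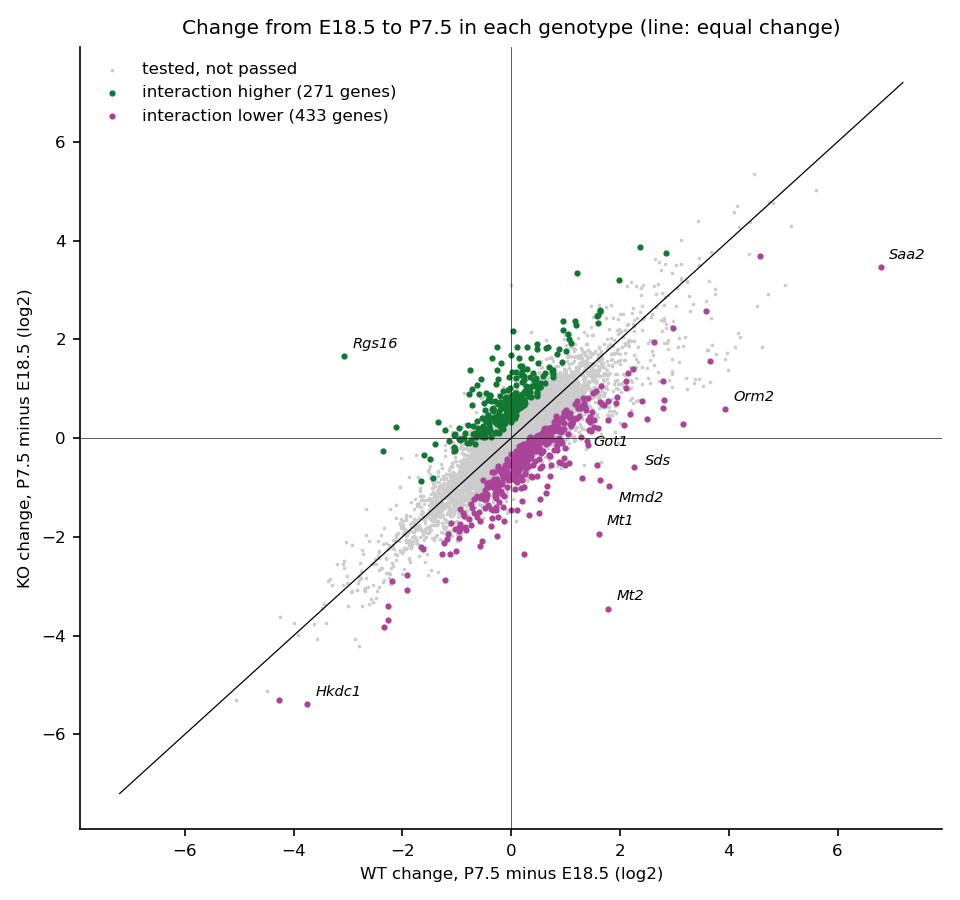
Change from E18.5 to P7.5 in WT livers (horizontal axis, log2) against the change in KO livers (vertical axis, log2), 1 point for each of 17248 genes tested. Grey points did not pass, green points are the 271 genes with a positive interaction and purple points the 433 with a negative one; Rgs16 lies above the line of equal change, where WT fell by 3.07 and KO rose by 1.65, and Mt2 lies below it.

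The count of called genes depended on single libraries. Leaving out P7.5 KO replicate 3 or 4 gave 268 and 272 genes, and E18.5 KO replicate 2 or 4 gave 356 and 369. Without P7.5 WT replicate 2, 3 or 4 there were 426, 414 and 363, and without E18.5 WT replicate 1 or 3 there were 440 and 449. Leaving out P7.5 KO replicate 1 or E18.5 WT replicate 2 gave 1244 and 1296, and leaving out both, an alternative added after seeing the data, gave 2126. With the left-out library put back into its labelled group there were 264 genes, 262 of them among the 704.

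Enzymes that break down amino acids lagged in KO livers after birth. Of 55 tested, 12 had a lower interaction past the test and 1, Ddo, a higher one (0.95), with a median of -0.39 against -0.03 for all genes. The median enzyme rose by 0.72 from E18.5 to P7.5 in WT and by 0.31 in KO. As higher with age, 45 enzymes passed in WT against 25 in KO, beside 4683 and 4210 of all 17248 genes tested. The 12 were Sds, Got1, Gls2, Aass, Hal, Oat, Sdsl, Cth, Gnmt, Ivd, Mccc2 and Hibadh. When 1 of the 15 libraries was left out, between 6 and 15 enzymes were lower. The low counts were 6 without P7.5 WT replicate 4 or E18.5 KO replicate 2, 7 without E18.5 WT replicate 1, E18.5 KO replicate 4 or P7.5 KO replicate 4, and 8 without E18.5 WT replicate 3. There were 7 with the slide as a random block and 3 when the library left out by its Gcgr level was put back.

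Sds encodes serine dehydratase, which turns serine into pyruvate for glucose production and is a classical target of glucagon. Its level was 2.56, 2.67, 2.74 and 2.20 in E18.5 WT and 2.55, 2.87, 2.48 and 2.61 in E18.5 KO. At P7.5 it was 4.63, 4.39, 5.03 and 5.16 in WT but 1.52, 2.48 and 2.13 in KO. The genotypes overlapped before birth and were fully apart at P7.5, since the WT rise of 2.26 had no counterpart in KO. The interaction was -2.84 ± 0.53 (SE), with an adjusted p of 0.00502. P7.5 KO replicate 2 stood at 4.78, within the WT range, and at P2.5 both genotypes were wide and overlapped, 2.57 to 4.41 in WT and 1.66 to 3.66 in KO. In Feature Extraction's own log ratio the Sds interaction was -1.01 and did not pass.

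Gls2, the liver glutaminase that releases ammonia from glutamine, showed the same order of groups. It was 3.29, 3.42, 3.23 and 3.29 in E18.5 WT, 3.36, 3.47, 3.52 and 3.56 in E18.5 KO, and 4.61, 4.40, 4.66 and 4.80 in P7.5 WT. The P7.5 KO libraries were at 2.42, 2.97 and 2.60, below every E18.5 library. WT rose by 1.31 while KO fell by 0.81, for an interaction of -2.12 ± 0.32 (adjusted p = 0.00108). Sdsl, a serine dehydratase-like enzyme, had an interaction of -1.04 ± 0.18 (adjusted p = 0.00331) and again did not overlap at P7.5, with WT from 1.57 to 2.03 and KO from 0.49 to 0.60.

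Got1 and Oat handle the amino groups of aspartate and ornithine. Got1, the cytosolic aspartate aminotransferase, started higher in KO and ended lower. It was 0.21, -0.32, -0.02 and 0.02 in E18.5 WT against 0.75, 1.36, 0.58 and 1.38 in E18.5 KO, and 1.51, 1.04, 1.92 and 1.74 in P7.5 WT against 0.44, 0.63 and 0.36 in P7.5 KO. The groups were apart at both ages in opposite directions, by 1.05 at E18.5 and -1.08 at P7.5, and the interaction was -2.12 ± 0.32 (adjusted p = 0.00111). Got1 kept its direction and its call under every one of the 29 alternatives run. Oat, ornithine aminotransferase, had an interaction of -1.13 ± 0.21 (adjusted p = 0.00452), with P7.5 levels from -0.11 to 0.54 in WT and from -0.67 to -0.59 in KO.

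Members of other degradation routes passed with smaller values. Aass, the first enzyme of lysine breakdown, had an interaction of -1.57 ± 0.37, and Hal, histidine ammonia-lyase, -1.49 ± 0.38 (adjusted p 0.0228 and 0.0314). Cth, which splits cystathionine to cysteine, had -1.04 ± 0.29 and Gnmt, glycine N-methyltransferase, -0.87 ± 0.23. Ivd, Mccc2 and Hibadh, of leucine and valine oxidation, had -0.69, -0.64 and -0.57. Gpt, alanine aminotransferase, had an interaction of -1.16 ± 0.36 that missed the threshold (adjusted p = 0.0714), and Tat, tyrosine aminotransferase, had -0.78 ± 0.54 (adjusted p = 0.458). Of the 55 enzymes, 47 had a negative interaction, beside 9439 of all 17248 genes tested.

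The urea cycle showed the same sign. Of 9 genes tested, 3 passed as lower and none as higher, with a median of -0.57, and 8 of the 9 values were negative. With P7.5 KO replicate 2 put back none passed. Ass1, argininosuccinate synthase, stood at 2.71, 2.85, 2.69 and 2.52 in E18.5 WT and 3.01, 3.34, 2.79 and 3.36 in E18.5 KO. At P7.5 it stood at 2.77, 2.73, 3.32 and 3.26 in WT and at 1.29, 1.73 and 1.66 in KO. The KO libraries moved from overlapping the WT range to lying wholly below it, and KO fell by 1.56 with age while WT moved by 0.33 and did not pass. The interaction was -1.89 ± 0.27 (adjusted p = 0.000851), and P7.5 KO replicate 2 was at 3.45.

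Cps1, the carbamoyl phosphate synthetase that commits ammonia to the cycle, was 5.44, 5.26, 5.72 and 5.48 in E18.5 WT and 5.84, 6.01, 5.75 and 5.92 in E18.5 KO. It was 4.82, 5.04, 5.72 and 5.75 in P7.5 WT and 4.40, 4.61 and 4.46 in P7.5 KO. The KO libraries lay above WT before birth, where the difference did not pass, and below it at P7.5, where it did, and the interaction was -1.25 ± 0.24 (adjusted p = 0.00595). Slc25a15, the mitochondrial ornithine carrier, rose in both genotypes, by 1.93 in WT and 0.71 in KO (interaction -1.23 ± 0.25, adjusted p = 0.00909). Arg1, Asl, Otc and Nags had interactions of -0.68, -0.57, -0.48 and -0.45 that did not pass, and Glul, glutamine synthetase, had 0.28.

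Among 20 amino acid transporters, 5 passed as lower and none as higher, with a median of -0.31. Slc43a1, a carrier of branched-chain and other large neutral amino acids, was 4.25, 4.59, 4.27 and 4.43 in E18.5 WT and 4.33, 4.48, 4.46 and 4.45 in E18.5 KO. It then stood at 3.80, 3.74, 3.66 and 4.05 in P7.5 WT and at 2.52, 2.84 and 2.90 in P7.5 KO. It fell with age in both genotypes but further in KO, by 1.68 against 0.57, with an interaction of -1.10 ± 0.15 (adjusted p = 0.000689). Slc3a1, a subunit of the cystine and dibasic amino acid transporter, fell by 3.68 in KO and 2.26 in WT (interaction -1.41 ± 0.35, adjusted p = 0.0296). Slc7a2, a cationic amino acid transporter, had -0.80 because it was 0.82 higher in KO at E18.5 and 0.02 apart at P7.5. Slc16a10 and Slc25a22, carriers of aromatic amino acids and of glutamate, had -0.65 and -0.60. The count was 1 without P7.5 WT replicate 4, 2 without P7.5 WT replicate 3, E18.5 KO replicate 2 or 4 or P7.5 KO replicate 3 or 4, and 3 without E18.5 KO replicate 3. It was 3 with the slide as a random block and 1 with P7.5 KO replicate 2 put back.

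**Figure D2:**
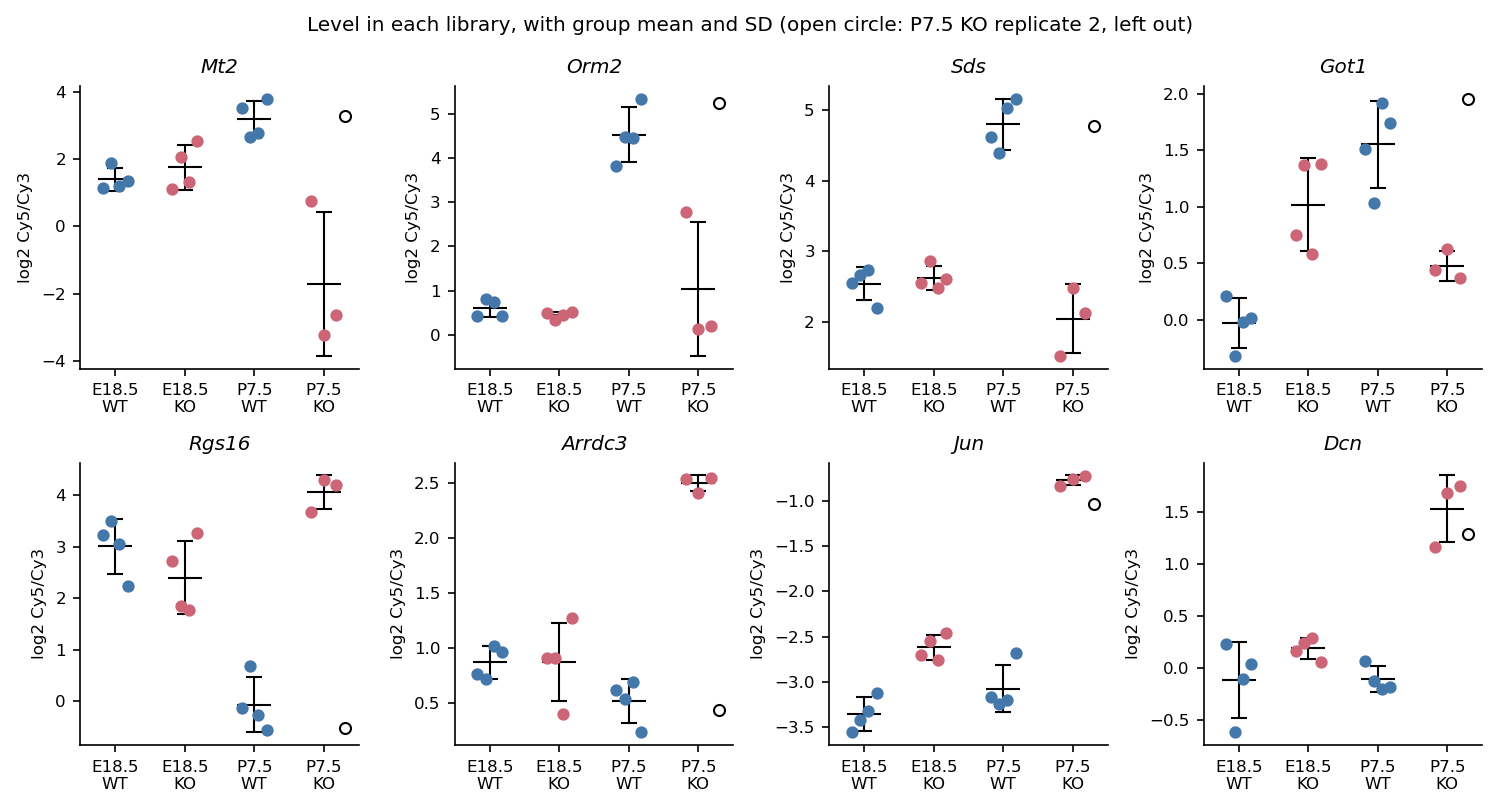
Level of 8 genes in each library of the 4 groups (log2 ratio of Cy5 to Cy3), with the group mean and SD as a line and bars. Open circles mark P7.5 KO replicate 2, which was left out: it lies with P7.5 WT for Mt2, Orm2, Sds, Got1, Rgs16 and Arrdc3 (slightly above it for Got1) and near the P7.5 KO libraries for Jun and Dcn.

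The metallothionein genes Mt2 and Mt1 had the largest and the second largest negative interactions among the named genes. Metallothioneins are small cysteine-rich proteins that bind zinc and copper and are induced by metals, glucocorticoids and stress. Mt2 was 1.14, 1.88, 1.20 and 1.34 in E18.5 WT and 1.10, 2.05, 1.31 and 2.54 in E18.5 KO. In P7.5 WT it was 3.50, 2.65, 2.76 and 3.78, whereas P7.5 KO replicates 1, 3 and 4 were at 0.74, -3.23 and -2.62. The genotypes overlapped before birth and were apart at P7.5, and within P7.5 KO replicate 1 stood well above the other libraries.

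The Mt2 interaction was -5.24 ± 0.82 (adjusted p = 0.00135), with a rise of 1.78 in WT and a fall of 3.45 in KO. Mt1 moved with it: WT rose by 1.60 and KO fell by 1.93, an interaction of -3.54 ± 0.53 (adjusted p = 0.00108), with P7.5 KO levels of 1.01, -1.12 and -0.53 against 2.62 to 3.55 in WT. P7.5 KO replicate 2 was within the WT range for both, at 3.27 and 3.03. Of the 16 genes for metallothioneins and metal transport that were tested, Mt1 and Mt2 were the 2 that passed. At P2.5 the genotypes overlapped, with Mt2 from 2.42 to 3.15 in WT and from 1.81 to 3.05 in KO.

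Proteins of the acute phase, which hepatocytes secrete under cytokine and glucocorticoid control, also rose with age mainly in WT. Of 29 tested, 8 passed as lower (Orm1, Orm2, Orm3, Saa1, Saa2, Saa3, Lcn2 and Apcs) and none as higher, the median was -0.41, and 26 values were negative. In WT 18 of the 29 passed as higher with age, against 4 in KO. The count with a lower interaction was 4 without P7.5 KO replicate 3 or 4 and up to 9 without other single libraries. None passed when P7.5 KO replicate 2 was put back. The Orm genes and Saa1 and Saa2 are near-identical copies of each other, so their probes may share signal and they are not separate evidence.

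Orm2, an alpha-1-acid glycoprotein of plasma, was 0.42, 0.80, 0.74 and 0.42 in E18.5 WT and 0.49, 0.34, 0.43 and 0.51 in E18.5 KO. It reached 3.82, 4.49, 4.47 and 5.35 in P7.5 WT but 2.78, 0.13 and 0.19 in P7.5 KO, with P7.5 KO replicate 2 at 5.25. Replicate 1 stood above the E18.5 KO libraries, replicates 3 and 4 stood slightly below them, and all 3 were below P7.5 WT. The interaction was -3.35 ± 0.63 (adjusted p = 0.00563), and for Orm1 it was -2.87 ± 0.48 (adjusted p = 0.00233).

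Saa1 and Saa2, serum amyloid A apolipoproteins, had interactions of -2.19 ± 0.43 and -3.34 ± 0.95 (adjusted p 0.00726 and 0.0492). Saa1 was 2.37, 2.74, 2.56 and 3.26 in P7.5 WT and 1.64, -0.15 and -0.24 in P7.5 KO, from E18.5 levels between -0.31 and 0.04 in both genotypes. Saa2 rose in both, by 6.79 in WT and 3.46 in KO, and its call was lost under 21 of 29 alternatives, with adjusted p up to 0.252. Orm3 was not well above background on any E18.5 KO array and on 1 of 4 E18.5 WT arrays. It was on all 4 P7.5 WT arrays and 2 of 3 P7.5 KO arrays, and its change in KO did not pass (interaction -2.10 ± 0.31, adjusted p = 0.00107). Hp, Fga, Fgb, Fgg and Hpx, the genes for haptoglobin, fibrinogen and hemopexin, had interactions from -0.49 to -0.24 that did not pass.

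The promoters of these genes are shown because their members moved together: the 250 bases before the start of transcription, from RefSeq on build GRCm38.p6, in the direction of transcription. In Mt2 the capitals mark matches on either strand to TGCACNC or TGCGCNC, the core of the metal response element bound by the factor MTF1. In the other genes they mark matches on either strand to TTGCNNAA, a form of the site bound by C/EBP factors. The windows are chr8:94172368-94172617 on the plus strand for Mt2, chr4:63362199-63362448 on the plus strand for Orm2, chr7:46742981-46743230 on the minus strand for Saa1 and chr7:46751583-46751832 on the plus strand for Saa2.
Mt2: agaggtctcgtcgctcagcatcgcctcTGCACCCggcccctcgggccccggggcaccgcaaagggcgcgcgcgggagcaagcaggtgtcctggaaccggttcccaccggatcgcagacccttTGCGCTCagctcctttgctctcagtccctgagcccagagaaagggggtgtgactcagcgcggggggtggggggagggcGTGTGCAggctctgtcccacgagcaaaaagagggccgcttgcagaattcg
Orm2: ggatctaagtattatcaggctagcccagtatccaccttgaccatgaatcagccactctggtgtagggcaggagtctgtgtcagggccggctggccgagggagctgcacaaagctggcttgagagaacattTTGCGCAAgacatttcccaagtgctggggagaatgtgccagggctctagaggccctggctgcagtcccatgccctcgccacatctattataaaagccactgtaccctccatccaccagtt
Saa1: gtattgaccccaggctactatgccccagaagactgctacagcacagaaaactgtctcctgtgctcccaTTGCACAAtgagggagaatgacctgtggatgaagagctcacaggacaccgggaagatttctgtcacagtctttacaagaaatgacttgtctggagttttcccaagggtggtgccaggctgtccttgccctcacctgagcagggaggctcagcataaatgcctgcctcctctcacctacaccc
Saa2: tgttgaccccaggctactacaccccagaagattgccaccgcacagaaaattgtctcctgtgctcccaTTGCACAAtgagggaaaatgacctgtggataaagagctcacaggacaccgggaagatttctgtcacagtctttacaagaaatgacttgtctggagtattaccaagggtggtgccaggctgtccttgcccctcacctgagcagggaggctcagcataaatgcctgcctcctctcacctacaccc
Mt2 held 3 matches and each of the other 3 genes held 1. The Saa1 and Saa2 windows share a run of 65 identical bases. Over 1 promoter for each of 27025 genes, 21.3% held the first motif and 9.55% held TTGCNNAA. Among tested genes with a listed promoter, TTGCNNAA was found in 14.5% of 351 with a lower interaction, in 8.82% of 204 with a higher one and in 8.29% of all 13674. The metal response core was found in 24.2%, 29.4% and 26.8% of these lower, higher and tested genes. TGACG, the short form of the CREB site, was found on either strand in 26.8%, 19.1% and 23.2% of the same groups. A match is a description of the letters and not of binding.

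The largest positive interaction belonged to Rgs16, a regulator of G protein signalling that shortens signals through Gi and Gq and is known in liver to follow feeding and glucose. It was 3.23, 3.49, 3.06 and 2.24 in E18.5 WT and 2.72, 1.85, 1.77 and 3.26 in E18.5 KO. In P7.5 WT it had dropped to -0.12, 0.69, -0.26 and -0.56, while P7.5 KO stood at 3.68, 4.28 and 4.198. The groups overlapped before birth and were apart by 4.12 at P7.5, where P7.5 KO replicate 2 was at -0.52 with WT. WT fell by 3.07 and KO rose by 1.65, an interaction of 4.72 ± 0.54 (adjusted p = 8.10e-05). At P2.5 the genotypes still overlapped, with KO at 2.96 to 3.81 and the lowest WT library at 2.24.

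Pklr, the liver pyruvate kinase at the end of glycolysis, fell by 1.06 in WT and moved by 0.07 in KO (interaction 1.13 ± 0.31, adjusted p = 0.0423). Arrdc3, an arrestin-domain protein that adjusts receptors at the cell surface, was between 0.40 and 1.27 in all E18.5 libraries. It was then 0.61, 0.54, 0.69 and 0.23 in P7.5 WT and 2.53, 2.41 and 2.54 in P7.5 KO, with P7.5 KO replicate 2 at 0.43. The interaction was 1.98 ± 0.24 (adjusted p = 0.000165). Irs2, the insulin receptor substrate induced by fasting, had an interaction of 1.38 ± 0.32 (adjusted p = 0.0214), with P7.5 levels of -0.04 to 0.36 in WT and 0.61 to 1.64 in KO. Of 17 genes regulated by insulin through FoxO factors, 2 passed as higher, Irs2 among them, and 1 as lower, Igfbp1, with a median of 0.02. Igfbp1, the insulin-repressed binding protein of growth factors, had -1.18 in the main measure, but its sign turned when Cy5 was taken alone.

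Most of the glycolytic genes that passed had a negative interaction. Of 22 genes of glycolysis and hexose entry, 7 passed as lower (Hkdc1, Pfkfb3, Slc2a1, Pgam1, Aldoa, Pgk1 and Tpi1) and 2 as higher, Pklr among them, with a median of -0.41. Hkdc1, a hexokinase of fetal tissues, was 4.41, 3.25, 3.92 and 4.81 in E18.5 WT and 5.30, 5.89, 5.83 and 5.96 in E18.5 KO. At P7.5 it was 0.18, 0.20, 0.52 and 0.46 in WT and 0.43, 0.36 and 0.28 in KO. KO was above WT before birth and overlapped it after, so the interaction of -1.63 ± 0.33 (adjusted p = 0.00917) reflects the E18.5 difference of 1.65.

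Pfkfb3, which makes the activator of phosphofructokinase, followed the same pattern with an E18.5 difference of 1.15, a P7.5 difference of -0.40 that did not pass and an interaction of -1.56 ± 0.36 (adjusted p = 0.0197). Slc2a1, the widely expressed glucose transporter, was 0.91 higher in KO at E18.5 and had an interaction of -1.14 ± 0.30. Another probe for Pfkfb3 had -0.20. Aldoa and Pgk1, aldolase and phosphoglycerate kinase, also differed at E18.5 and not at P7.5. Tpi1, triose phosphate isomerase, and Pgam1, phosphoglycerate mutase, differed at P7.5 and not at E18.5, by -0.78 and -0.49. The count of lower genes was 1 without P7.5 KO replicate 3 or 4, 2 without E18.5 KO replicate 2, and 3 without E18.5 WT replicate 1, P7.5 WT replicate 2, 3 or 4 or E18.5 KO replicate 4. It was 3 with the slide as a random block and 1 with P7.5 KO replicate 2 put back.

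Genes that carry the cAMP signal or respond to it had no common direction. Of 27 parts of glucagon and cAMP signalling, Rgs16 passed as higher and Crem as lower, with a median of -0.01, and of 21 cAMP response targets Irs2 passed as higher and Sds and Crem as lower, with a median of 0.08. Crem, whose gene gives both activators and a cAMP-induced repressor, was 0.34, 0.68, 0.30 and 0.26 in E18.5 WT and 0.53, 0.31, 0.17 and 0.29 in E18.5 KO. It then reached 1.91, 1.74, 1.89 and 2.12 in P7.5 WT and 1.07, 0.48 and 0.49 in P7.5 KO. WT rose by 1.52 and the change of 0.36 in KO did not pass, so that the interaction was -1.16 ± 0.28 (adjusted p = 0.0223), and P7.5 KO replicate 2 was within the WT range. Of the other Crem probes, 1 had -0.995 and 1 had 0.04.

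The 2 best known glucagon targets of glucose production had interactions near 0. Pck1, phosphoenolpyruvate carboxykinase, rose by 2.31 in WT and 2.43 in KO (interaction 0.13 ± 0.57, adjusted p = 0.935), and its KO-WT difference was -1.13 at E18.5, which passed, and -1.01 at P7.5, which did not. G6pc, glucose-6-phosphatase, had 0.08 ± 0.32 (adjusted p = 0.925). Of 14 gluconeogenesis genes, Got1 and Mdh1 passed, both as lower. Mdh1, the cytosolic malate dehydrogenase that works with Got1 in moving carbon out of mitochondria, was 0.71 higher in KO at E18.5 and had an interaction of -0.98 ± 0.17 (adjusted p = 0.00329) that kept its call under every alternative run. Of 19 glycogen genes, Gsk3b and Stbd1 passed as higher, with 0.80 and 0.62. Neither passed with any library but E18.5 WT replicate 2 or P7.5 KO replicate 1 left out, with the slide as a random block or with P7.5 KO replicate 2 put back, and other Gsk3b probes had 0.16 and 0.41.

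Some genes of oxidative phosphorylation rose less in KO. Of 42 tested, 7 passed as lower and none as higher, with a median of -0.35, and 38 values were negative. In WT 38 of the 42 passed as higher with age and in KO 19 did, and the median rises over all 42 were 0.53 and 0.24. Ndufs7, a subunit of complex I, was 0.27, 0.24, 0.45 and 0.48 in E18.5 WT, 0.31, 0.48, 0.37 and 0.56 in E18.5 KO, 0.61, 0.59, 0.73 and 0.62 in P7.5 WT and -0.11, -0.07 and 0.02 in P7.5 KO. It went up in WT and down in KO without overlap at P7.5 (interaction -0.76 ± 0.11, adjusted p = 0.000851). Sdhb, of complex II, rose in both, by 1.08 and 0.41 (interaction -0.67 ± 0.15, adjusted p = 0.0152). For Ndufs7 and Sdhb, P7.5 KO replicate 2 was at 0.34 and 1.90, between the groups. Without E18.5 WT replicate 2 there were 14 lower genes, without E18.5 WT replicate 3 or 4 or P7.5 WT replicate 1 there were 4, and without P7.5 KO replicate 1 there were 3. There were 2 without E18.5 WT replicate 1, P7.5 WT replicate 2, 3 or 4, E18.5 KO replicate 2 or 4 or P7.5 KO replicate 3 or 4, 2 with the slide as a random block and 2 with P7.5 KO replicate 2 put back.

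The chaperones of the endoplasmic reticulum, which fold secreted proteins, had a median of -0.37. Of 21 tested, Manf and Dnajb11 passed as lower, with -0.95 and -0.70, and Herpud1, which aids removal of misfolded proteins, passed as higher with 0.79. All 3 calls were lost when the slide was taken as a random block or P7.5 KO replicate 2 was put back, whereas 2 genes passed as higher and 5 as lower when P7.5 KO replicate 1 was omitted. Another probe for Dnajb11 had -0.34. Of 27 genes of the integrated stress response Asns passed as lower, and of 48 cytosolic ribosomal proteins Rpl9 and Rpl13a did, with -0.34 and -0.39. Another probe for Rpl13a had 0.03. None of these 3 passed under the slide block or with P7.5 KO replicate 2 put back.

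Most fatty acid oxidation genes rose with age in both genotypes. None of the 34 genes tested passed for the interaction, and at most 2 as higher and 1 as lower did when single libraries were left out. The median rise with age was 1.08 in WT and 1.01 in KO, and 28 and 26 genes passed as higher with age. Cpt1a, which admits fatty acids to mitochondria, lay just outside the threshold with an interaction of 0.79 ± 0.23 (adjusted p = 0.0512). Of 24 genes of cholesterol synthesis and uptake, Stard4, Hsd17b7 and Mvd passed as higher (1.40, 0.77 and 0.79) and none as lower, the median was 0.32 and 20 values were positive. The count was 1 without P7.5 WT replicate 3, E18.5 KO replicate 4 or P7.5 KO replicate 3 or 4, 5 without E18.5 WT replicate 2 and 0 with P7.5 KO replicate 2 put back. Mvd, mevalonate diphosphate decarboxylase, fell by 1.06 in WT while the change of -0.27 in KO did not pass. Another probe for Stard4 had -0.10. Of 28 lipogenesis and lipid storage genes, Plin2, the coat protein of lipid droplets, passed as higher with 0.61; none did under the slide block or with P7.5 KO replicate 2 put back, and without E18.5 WT replicate 2 there were 6.

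Some growth-associated early response genes ended relatively higher in KO, though the list had no common direction. Of 22, Egr1, Jun, Ccn2 and Ccn1 passed as higher and none as lower, and 2 passed without P7.5 KO replicate 3. The median was 0.10, with 12 values positive and 10 negative. Egr1, a zinc finger factor, was -2.66, -2.41, -2.06 and -2.52 in E18.5 WT and -3.35, -3.98, -3.19 and -3.54 in E18.5 KO. At P7.5 it was -2.83, -2.95, -2.51 and -2.40 in WT and -1.55, -1.94 and -1.52 in KO. KO crossed from below WT to above it without overlap at either age (interaction 2.11 ± 0.37, adjusted p = 0.00329), and this call held under all 29 alternatives.

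Jun, a subunit of the AP-1 factor, was -3.55, -3.42, -3.32 and -3.12 in E18.5 WT and -2.70, -2.55, -2.75 and -2.45 in E18.5 KO. It was -3.16, -3.24, -3.20 and -2.68 in P7.5 WT and -0.83, -0.76 and -0.73 in P7.5 KO. KO was above WT at both ages and the gap widened from 0.74 to 2.30 (interaction 1.56 ± 0.23, adjusted p = 0.00107). P7.5 KO replicate 2, with Gcgr at the WT level, was at -1.04 for Jun, beside the KO libraries that share its slide. The part of the slide in this difference was not tested.

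Genes of hepatic stellate cells and fibroblasts, the cells that make liver matrix, ended higher in KO. In bulk RNA, more cells of a type and more RNA per cell cannot be told apart. Of 31 tested, Timp2, Dcn, Igfbp3, Col1a2 and Col5a1 passed as higher and none as lower, with a median of 0.43, and 27 values were positive. The mean level of the list was -0.63 to -0.24 in E18.5 WT, -0.09 to -0.02 in E18.5 KO, -0.26 to -0.16 in P7.5 WT and 0.42 to 0.70 in P7.5 KO, with P7.5 KO replicate 2 at 0.13. Leaving out E18.5 WT replicate 2 gave 9 genes and leaving out P7.5 KO replicate 1 gave 8, while 2 passed with P7.5 KO replicate 2 put back.

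Dcn, the matrix proteoglycan decorin, was 0.23, -0.62, -0.11 and 0.04 in E18.5 WT and 0.17, 0.24, 0.28 and 0.05 in E18.5 KO. It was 0.07, -0.13, -0.20 and -0.19 in P7.5 WT and 1.16, 1.68 and 1.74 in P7.5 KO. The KO rise of 1.34 had no counterpart in WT (interaction 1.34 ± 0.27, adjusted p = 0.00746), and P7.5 KO replicate 2 was at 1.29. Timp2, an inhibitor of matrix proteases, was higher in KO at both ages, by 1.41 and 3.10 (interaction 1.69 ± 0.28, adjusted p = 0.00232), and P7.5 KO replicate 2 was at -2.01, nearer the KO libraries. Another Timp2 probe, well above background on all 23 arrays, had an interaction of 0.24. Igfbp3 and Col5a1 had 1.10 and 1.06, and for these the left-out library was at 2.13 and -1.98, nearer WT.

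Of 26 endothelial genes, Ptprb, Ehd3 and Eng passed as higher and none as lower, with a median of 0.20, and without P7.5 KO replicate 1 there were 6. There were 2 with the slide as a random block and 1 with P7.5 KO replicate 2 put back. Ptprb, a receptor phosphatase of vessel walls, was 4.01, 2.93, 3.82 and 3.81 in E18.5 WT and 2.99, 3.15, 2.80 and 2.80 in E18.5 KO. It was 3.95, 3.54, 3.66 and 3.55 in P7.5 WT and 4.25, 5.37 and 5.72 in P7.5 KO. The order of the group means turned between the ages, though the libraries overlapped at E18.5 (interaction 2.14 ± 0.34, adjusted p = 0.00151). At P2.5 KO was the lower, at 3.05 to 3.12 against 4.86 to 5.29 in WT. The Ptprb call was lost under 2 of 29 alternatives, with an interaction down to 0.40 and adjusted p up to 0.759. Another probe for Ptprb had 0.87. The other defining endothelial genes Pecam1, Cdh5, Stab2 and Lyve1 had 0.30, 0.02, 0.12 and 0.92 and did not pass.

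Among markers of blood cells, those of the platelet line fell further in KO. All 17 megakaryocyte and platelet genes tested had a negative interaction and 6 passed, among them Gp9, Ppbp, Treml1, Rab27b and Pf4, with a median of -0.67. Their mean level went from 2.94 to 3.37 in E18.5 WT and 2.90 to 3.34 in E18.5 KO to 2.20 to 2.35 in P7.5 WT and 1.41 to 1.81 in P7.5 KO, with P7.5 KO replicate 2 at 2.33. Pf4, platelet factor 4, was 1.82, 2.35, 2.12 and 1.66 in E18.5 WT, 1.62, 1.71, 1.12 and 1.62 in E18.5 KO, 1.04, 0.91, 0.63 and 0.75 in P7.5 WT and -0.60, -0.41 and -0.29 in P7.5 KO. It fell with age in both genotypes and the KO libraries ended lowest (interaction -0.80 ± 0.22, adjusted p = 0.0409). The count was 8 without E18.5 WT replicate 2, 3 without E18.5 WT replicate 1, P7.5 WT replicate 1 or 3 or P7.5 KO replicate 1, and 2 without E18.5 WT replicate 4, P7.5 WT replicate 2 or 4, E18.5 KO replicate 1, 2 or 4 or P7.5 KO replicate 3 or 4. With the slide as a random block 2 passed, and with P7.5 KO replicate 2 put back none did.

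Of 29 erythroid genes, Tspo2 passed as lower and none as higher, and their median fall with age was 1.86 in WT and 1.80 in KO. The difference between the platelet and red cell lists was not tested. Of 26 lymphoid genes, Gzma, Vpreb1, Vpreb2 and Cd3d passed as lower, with -1.55, -1.40, -1.35 and -0.97. The count was 2 without E18.5 KO replicate 3 or P7.5 KO replicate 4, and 1 without any other library but E18.5 WT replicate 2, P7.5 WT replicate 1 or P7.5 KO replicate 1. It was 1 with the slide as a random block and 0 with P7.5 KO replicate 2 put back. Of 18 macrophage genes Hmox1 and Spic passed as lower, with -1.02 and -1.14, and 1 gene of the list or none did under the slide block, with P7.5 KO replicate 2 put back and without each of 12 single libraries. Gzma, a protease of natural killer and cytotoxic T cells, was 5.03, 6.16, 6.15 and 6.38 in P7.5 WT and 4.96, 3.68 and 4.08 in P7.5 KO. Of 25 granulocyte and monocyte genes, Ear6 and Epx, genes of eosinophil granules, passed as higher with 1.68 and 1.67 and none as lower. The list had no common direction, with a median of 0.01, 14 values positive and 11 negative. Neither gene passed under the slide block or with P7.5 KO replicate 2 put back. Without each of 11 single libraries, 1 gene of the list or none passed. In KO, Epx was 1.19, 0.98, 1.03 and 2.20 at E18.5, below or near the WT values of 2.04 to 2.56, and 1.40, 2.45 and 2.90 at P7.5. For the platelet, lymphoid and macrophage lists the mean level of P7.5 KO replicate 2 lay within or beside the P7.5 WT range.

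Several genes outside these groups had large interactions. Mmd2, a membrane protein of the progestin and adipoQ receptor family, was 4.57, 4.43, 5.25 and 4.84 in P7.5 WT and 1.10, 1.96 and 2.42 in P7.5 KO, from 2.56 to 3.20 in all E18.5 libraries (interaction -2.76 ± 0.41, adjusted p = 0.00107). In KO, Upp2, a uridine phosphorylase of liver, lay above WT before birth, where the difference did not pass, and below it at P7.5, where it did. Its interaction was -2.49 ± 0.56 (adjusted p = 0.0172), and the call was lost under 5 of 29 alternatives. Cyp2f2, a cytochrome P450 of periportal hepatocytes, was 4.86 to 5.15 in P7.5 WT and 2.91 to 3.91 in P7.5 KO (-2.03 ± 0.34, adjusted p = 0.00233).

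Among the rises, Aqp4, a water channel, went from 0.15 to 0.86 in all E18.5 libraries to 1.36 to 1.81 in P7.5 WT and 3.37 to 4.28 in P7.5 KO (2.12 ± 0.32, adjusted p = 0.00115). Atp2b2, a calcium pump of the plasma membrane, had 2.12 ± 0.35, Krt20, a keratin, 1.74 ± 0.22, Rnf125, a ubiquitin ligase, 1.73 ± 0.28 and Spon2, a secreted matrix protein, 1.70 ± 0.26. For these 5 genes the P7.5 KO libraries used all lay above WT. Eif4ebp2, a repressor of translation, had 1.71 ± 0.38 (adjusted p = 0.0144), and Tnfrsf19, a receptor of the tumour necrosis factor family, had 1.71 ± 0.26 with another probe at -0.16. Another probe for Atp2b2 had 1.07, and at P2.5 KO was the lower for Atp2b2, at 0.82 to 1.46 against 2.87 to 3.72 in WT.

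For 3 further genes the signal limits what can be said, and no fold is given. Comp, a cartilage matrix protein, was well above background on every E18.5 array, where KO was 1.54 higher than WT and the difference passed. It was not well above background on any P7.5 WT array but was on 2 of 3 P7.5 KO arrays. The P7.5 difference of 0.06 did not pass. The interaction of -1.48 ± 0.39 (adjusted p = 0.0345) thus reflects the E18.5 difference, and its call was lost under 9 of 29 alternatives. Mc4r, a melanocortin receptor, was not well above background on any E18.5 KO array, at 0.04 to 0.23. It was on all 4 E18.5 WT arrays, at 0.54 to 0.85. Its P7.5 levels were 0.06 to 0.37 in WT and 0.33, 0.65 and 1.16 in KO, and that difference did not pass. The interaction was 1.05 ± 0.28 (adjusted p = 0.0369), and its call was lost under 15 of 29 alternatives. Ifi27l2b, an interferon-inducible gene, had an interaction of 1.22 ± 0.25 (adjusted p = 0.00917) in a probe that was not well above background on any E18.5 KO array. Another Ifi27l2b probe, well above background on 22 of 23 arrays, had 0.07.

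**Figure D3:**
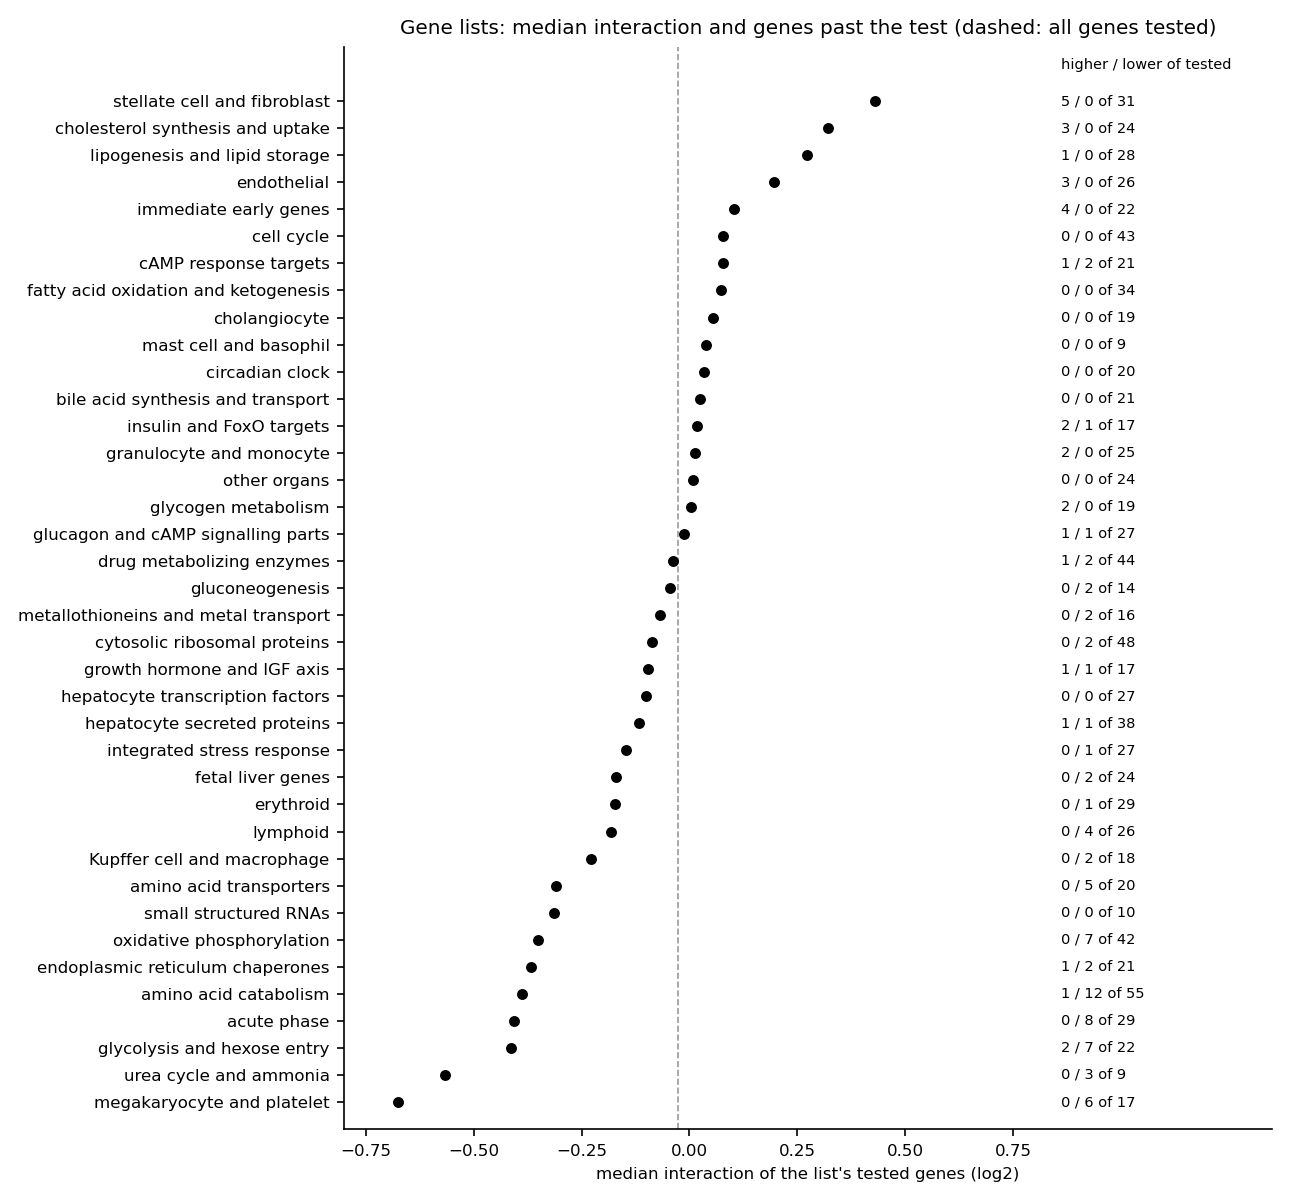
Median interaction (log2) of the tested genes of each list, with the number that passed as higher and as lower of those tested printed at the right and the median of all genes tested, -0.03, as a dashed line. The platelet and urea cycle lists sit lowest, at -0.67 and -0.57, and the stellate cell list highest, at 0.43.

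Several lists held no called gene. None of 27 hepatocyte transcription factors, 21 bile acid genes, 43 cell cycle genes, 20 clock genes, 19 cholangiocyte genes or 24 genes of other organs passed for the interaction. When single libraries were left out, up to 4 bile acid genes and up to 2 genes in 1 direction of the other lists passed, and none of the genes of other organs did. Of 44 drug metabolizing enzymes, 32 passed as higher with age in WT and 29 in KO, with median changes over all 44 of 0.92 and 0.94. For the interaction, Aox1 passed as higher and Cyp2f2 and Cyp3a13 as lower. Of 24 fetal liver genes Igf2bp1 and Aldoa passed as lower, and neither did under the slide block or with P7.5 KO replicate 2 put back. Of 38 secreted hepatocyte proteins, Apoa4 passed as higher and C8a as lower, and both turned sign under 1 other way of computing the ratio. Alb, albumin, rose by 0.56 in WT and 0.61 in KO (interaction 0.05 ± 0.29, adjusted p = 0.951).

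The left-out library divided the called genes. For 552 of the 704 the KO-WT difference also passed at P7.5, and for 315 of these P7.5 KO replicate 2 was nearer the P7.5 WT mean than the mean of the other KO libraries. Its median position was 0.405, where 0 is the WT mean and 1 the KO mean. These genes were chosen because the other P7.5 KO libraries differed from WT. A library outside that choice therefore tends to lie short of the KO mean. No library used was placed on this scale in the same way, so the counts do not measure how near WT this library is. Of all libraries P7.5 KO replicate 2 correlated most with P7.5 KO replicate 1 (r = 0.980). The correlation was 0.971 to 0.975 with the P7.5 WT libraries and 0.954 with P7.5 KO replicates 3 and 4. Among 40 described genes with the largest P7.5 differences, a choice with the same limit, the left-out library was nearer WT for 33. These included the genes of amino acid breakdown, the metallothioneins, the acute phase genes, Rgs16 and Arrdc3, while Gsk3b, Jun, Dcn, Eif4ebp2, Timp2 and Ccn2 were nearer KO. This library shared the slide of the P7.5 KO libraries and the Gcgr level of WT, and also differed from the other P7.5 KO libraries in Ddx3y (-2.56 against 1.33 to 1.70). The part of each in its position was not tested.

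**Figure D4:**
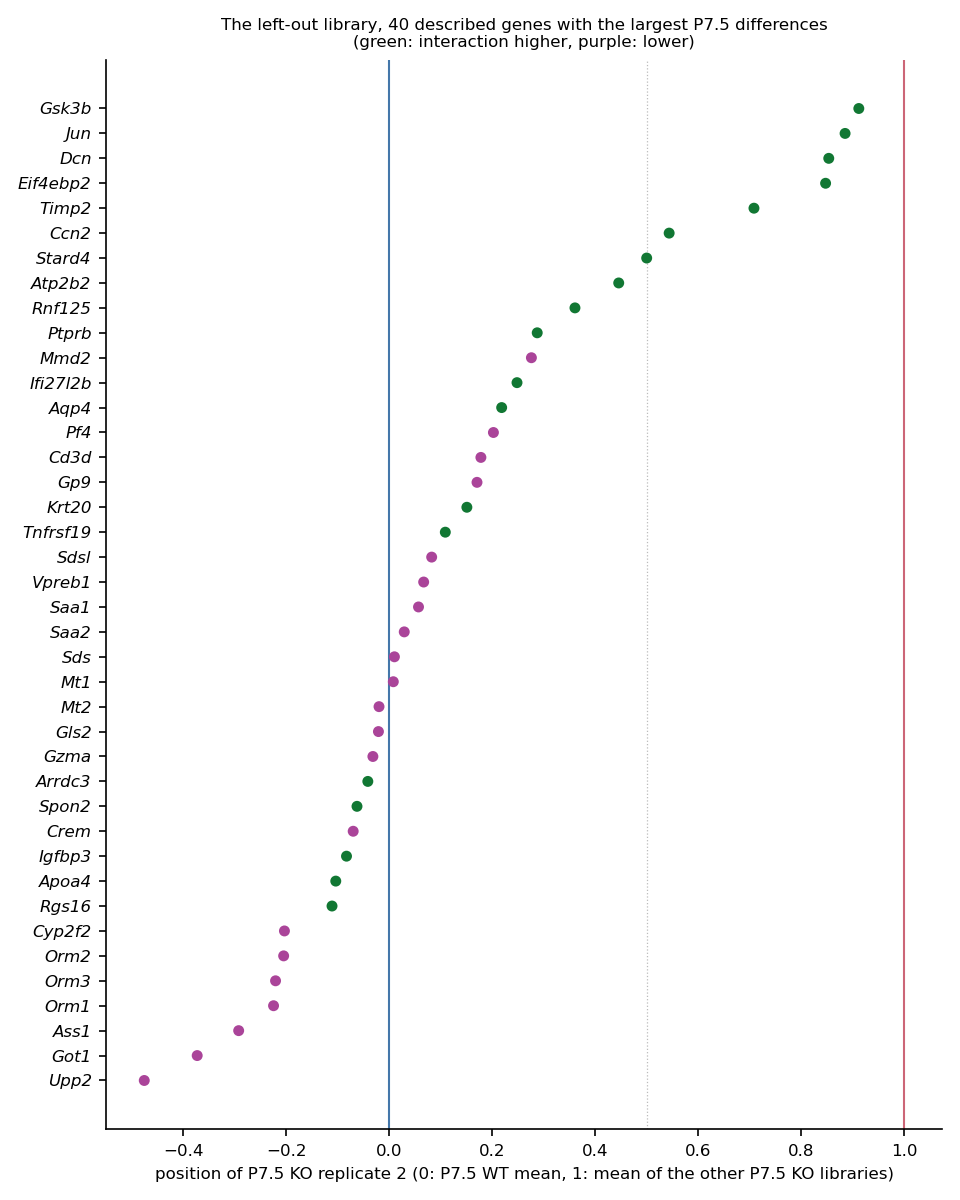
Position of P7.5 KO replicate 2 for 40 described genes with the largest P7.5 differences, on a scale where 0 (blue line) is the P7.5 WT mean and 1 (red line) the mean of the other 3 P7.5 KO libraries. The genes were chosen without this library, so its position tends to fall short of 1. Green points have a positive interaction and purple points a negative one; positions run from -0.48 for Upp2 to 0.91 for Gsk3b.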

How the data were processed

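Liver RNA of 24 libraries was measured on 2-colour Agilent arrays, Cy5 for the liver and Cy3 for a universal mouse reference, with no dye swap. Per the file headers, Agilent Feature Extraction 11.5.1.1 (WT) or 11.0.1.1 (KO) gave the median spot and background intensity of each channel, with no normalization, and a log10 ratio of Cy5 to Cy3 after its own background and dye correction. The deposited table of the authors' processed values holds log2 ratios of Cy5 to Cy3, established by setting it against the scanner values of each array. Intensities were background-corrected (normexp, offset 50) and normalized within arrays by loess in limma 3.58.1 (R 4.3.3). Median signals were used because the files hold these, where mean signals had been planned.

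Control spots and outlier spots (0.484% of values) were left out. Of 39429 probes, 26581 had 1 RefSeq symbol, and the probe brightest in Cy5 stood for each of 20144 genes. Genes well above background on at least 4 arrays were tested, with limma and Benjamini-Hochberg adjustment over all of them, in 1 fit of 6 groups and 23 libraries. Pairing was checked and not used. The depth of an array is not counted, so the number of libraries limits the precision.

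Named were the 12 largest rises and 12 largest falls that kept their sign under other background, ratio, dye and probe choices, up to 2 in each direction with a group below background, and up to 4 called members of each list. Members and lists were chosen with earlier results of these data known. The fit was tested on simulated data. No column from other samples was used (0 columns). The results of 3 genes that this rule names are not reported here.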

Additional observations from a re-analysis of the deposited data

Results flagged for a closer look

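The test of the difference between the ages passed for 704 genes. In the library left out, P7.5 KO replicate 2, Gcgr stood at 5.02 against -0.01 to 0.26 in the other P7.5 KO libraries.

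Of 271 groups of 4 libraries examined among the named genes, 12 held a library far from the others by Dixon's criterion, which chance meets in about 1 group in 20; Gcgr in P7.5 KO was 1 of them. E18.5 WT replicate 2 stood apart for Krt20 (1.70 against 2.08 to 2.09), Eif4ebp2 (-0.82 against 0.29 to 0.51) and Aox1 (-0.54 against -1.12 to -1.02). P7.5 WT replicate 1 stood apart for Rnf125 (1.52 against 1.15 to 1.19) and Timp2 (-3.94 against -4.34 to -4.27). Jun was -2.68 in P7.5 WT replicate 4 against -3.24 to -3.16, and Pgam1 was -1.31 in P7.5 WT replicate 3 against -1.68 to -1.63. In E18.5 KO, replicate 3 stood apart for Irs2 (0.22 against 0.31 to 0.32) and Pf4 (1.12 against 1.62 to 1.71). Hsd17b7 was 1.17 in E18.5 KO replicate 1 against 0.80 to 0.86, and Epx was 2.20 in E18.5 KO replicate 4 against 0.98 to 1.19.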

How the results depend on the processing

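The count of 704 genes with an interaction ranged from 268 to 1296 when 1 library was left out. It was 334 with the background fitted on all spots, 436 with Feature Extraction's log ratio, 363 with the slide as a random block, 264 with P7.5 KO replicate 2 kept, 1282 on the E18.5 and P7.5 arrays alone and 5035 with array weights. Leaving out both libraries that stood apart, chosen after seeing the data, gave 2126. With Cy5 alone it was 757, split into 385 higher and 372 lower against 271 and 433. The cause of these shifts was not tested. With a replicate block it was 494, of which 479 were among the 704; same-numbered libraries deviated together in 3 of 21 pairs (correlation over 0.1), so the numbers were not taken as pairs. The P7.5 KO-WT count was 10444 with array weights. Leaving out 1 library gave 7205 to 8230 genes for the change in WT, 6459 to 7980 in KO, 3709 to 4928 for the genotype difference at E18.5 and 4712 to 6897 at P7.5. Of 89 named genes, 3 changed sign under 1 alternative each: Igfbp1 (0.75) and C8a (0.0111) with Cy5 alone, and Apoa4 (-0.88) with Feature Extraction's log ratio. With P7.5 KO replicate 2 kept 24 of the 89 held their call, and with the slide block 58 did.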
